A study of Homo sapiens with 3 samples.

Results

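The miR-23, miR-27 and miR-24 clusters were examined in extracellular vesicles (EVs) released by HepG2 cells. Members were all names in the deposited miR count table that are an arm of miR-23a, miR-23b, miR-24, miR-27a or miR-27b, which gave 11 of the 512 names. The 11 names comprised 5 from the 3p side and 6 from the 5p side of a hairpin. HepG2 is an established human line derived from a liver tumor, labelled as wildtype hepatocytes, and all samples came from 1 condition, 48 h of culture in medium without serum. EVs from 3 batches were pelleted at 100000 × g for 70 min, and about 200 ng of EV RNA per batch went into 1 small RNA library. The libraries held 8704, 10834 and 7933 miR counts in batches 1, 2 and 3. No source states whether the batches were separate cultures. The p-values for differences between batches compare these libraries with counting noise only and do not measure the spread between cultures.

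miR-23, miR-27 and miR-24 are cut from the same primary transcript, of which the human genome holds 1 copy on chromosome 9 and another on chromosome 19. After cleavage of each hairpin, usually 1 arm is retained as the guide strand in an Argonaute protein while the opposite strand is degraded, and in all these precursors the 3p arm is known as the main guide. The miRs are widely expressed and have been studied in endothelial cells, in muscle and in the control of lipid metabolism and TGF-β signaling in the liver. The bases 2 to 8 of a miR, its seed, largely determine which mRNAs it can pair with.

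The members were placed on the human genome with RefSeq hairpins (GRCh38.p14), whose coordinates were the same in GENCODE 29. On the plus strand of chromosome 9, MIR23B lies from 95085208 to 95085304, MIR27B from 95085445 to 95085541 and MIR24-1 from 95086021 to 95086088, a span of 881 bases. All of these lie within AOPEP, which encodes an aminopeptidase and carries the older symbol C9orf3 in GENCODE 29. MIR23B and MIR27B are intronic there, whereas MIR24-1 overlaps an annotated exon of at least 1 transcript. On the minus strand of chromosome 19, MIR23A lies from 13836587 to 13836659, MIR27A from 13836440 to 13836517 and MIR24-2 from 13836287 to 13836359, a span of 373 bases. These lie within the noncoding host gene MIR23AHG of RefSeq and overlap an exon of the noncoding gene AC020916.1 of GENCODE 29.

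The mature sequences show which counts can be ascribed to a locus. They are given 5′ to 3′ with the seed in capitals, for the 6 members that had a count and for miR-27b-5p, the counterpart of miR-27a-5p, which had none.
hsa-miR-24-3p: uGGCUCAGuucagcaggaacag
hsa-miR-23a-3p: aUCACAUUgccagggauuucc
hsa-miR-23b-3p: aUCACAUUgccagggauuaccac
hsa-miR-27a-3p: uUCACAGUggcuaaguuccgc
hsa-miR-27b-3p: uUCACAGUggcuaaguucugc
hsa-miR-27a-5p: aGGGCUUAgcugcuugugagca
hsa-miR-27b-5p: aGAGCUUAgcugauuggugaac

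miR-24-3p is the same RNA from both loci, so its counts cannot be divided between chromosomes 9 and 19. miR-23a-3p and miR-23b-3p share their seed and their first 18 bases, differ by U19A (miR-23a-3p first, counted from the 5′ end), and miR-23b-3p is annotated with 2 more bases at its 3′ end. miR-27a-3p and miR-27b-3p differ only by C19U (miR-27a-3p first). A read that ends before base 19 would fit either paralog, and the sources used here do not say how such reads were counted. Among the 451 names that matched RefSeq, the only other name with the seed of a member was miR-23c, which had 0 counts.

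The hairpins of miR-24 are shown because only their 5p arms tell the loci apart. Both arms are in capitals.
MIR24-1: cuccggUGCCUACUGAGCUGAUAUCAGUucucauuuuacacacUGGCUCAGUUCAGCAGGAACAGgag
MIR24-2: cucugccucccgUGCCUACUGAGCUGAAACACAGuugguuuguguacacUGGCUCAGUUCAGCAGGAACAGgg

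Of the 11 members, 6 had a count, and the members held 314 counts over the 3 batches. miR-24-3p took 201 of these (64.0%), the miR-23 3p arms 85 (27.1%) and the 4 miR-27 arms 28 (8.92%). The summed share of the members was 1.44% in batch 1 (95% Wilson interval 1.21% to 1.71%), 1.01% in batch 2 (0.835% to 1.21%) and 1.01% in batch 3 (0.811% to 1.25%), with a mean of 1.15% ± 0.248 (SD, n = 3). Only counting error enters these intervals, since the libraries carry no molecular identifiers and a molecule can be read more than once after PCR. The sum was highest in batch 1. Its interval there only just reached that of batch 2 (lower bound 1.207% against an upper bound of 1.212%) and overlapped that of batch 3. Such overlap does not show equal shares, and no test of the sum was run. Expressed per count of the other miRs, after removal of the 5 most abundant miRs from the totals, it was 2.75%, 2.72% and 2.80%, with batch 3 the highest. The 5 most abundant miRs took 47.7% of all counts in batch 1 but 63.0% and 63.9% in batches 2 and 3.

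miR-24-3p was the most abundant member, at place 20 among all names by pooled count and at places 19, 20 and 19 in the single batches. Its counts were 80, 74 and 47 in batches 1, 2 and 3. This corresponded to 0.919% (0.739% to 1.14%), 0.683% (0.544% to 0.857%) and 0.592% (0.446% to 0.787%) of the miR counts, a mean of 0.732% ± 0.169 (SD, n = 3). The level was highest in batch 1, and the interval of batch 1 overlapped those of batches 2 and 3. In the order by pooled count, miR-24-3p stood between miR-342-3p and miR-140-3p. The share of miR-24-3p was lower than that of miR-342-3p in batches 1 and 2 and equal to it in batch 3, where both had 47 counts, and it was higher than that of miR-140-3p in 3 of 3 batches, by 0.103 percentage points (SD 0.0443).

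miR-23b-3p had 21, 22 and 14 counts, or 0.241%, 0.203% and 0.176% of the batch totals, with a mean of 0.207% ± 0.0326 (SD, n = 3). It stood at place 46 of all names. miR-23a-3p had 11, 7 and 10 counts, or 0.126%, 0.0646% and 0.126%, with a mean of 0.106% ± 0.0356. The shares of miR-24-3p, miR-23b-3p and miR-23a-3p did not overlap with each other over the 3 batches, and their order was the same in each batch. Next to miR-23b-3p in the order of all names stood miR-185-5p with 58 and miR-30c-5p with 54 counts, and neither neighbor was on the same side of miR-23b-3p in all batches.

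miR-27 was scarce. The counts of miR-27b-3p were 6, 0 and 7 in batches 1, 2 and 3, whereas miR-27a-3p had 2, 3 and 0. The 5p arm of miR-27a had 5, 3 and 2 counts. For a name with 0 counts, the detection limit taken as 3 counts of the total was 0.0345%, 0.0277% and 0.0378% in batches 1, 2 and 3, and the upper bound of the two-sided 95% Wilson interval was 0.0441%, 0.0354% and 0.0484%. The highest share of any miR-27 arm was 0.0882%, that of miR-27b-3p in batch 3. The ranges of the miR-27 arms overlapped with each other, so no order among these arms stood beyond the spread between batches. The range of miR-23a-3p overlapped with that of miR-27b-3p and lay above those of miR-27a-3p and miR-27a-5p. miR-23a-5p, miR-23b-5p, miR-24-1-5p, miR-24-2-5p and miR-27b-5p had 0 counts in every batch and, at this depth, were not detectable.

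**Figure D1:**
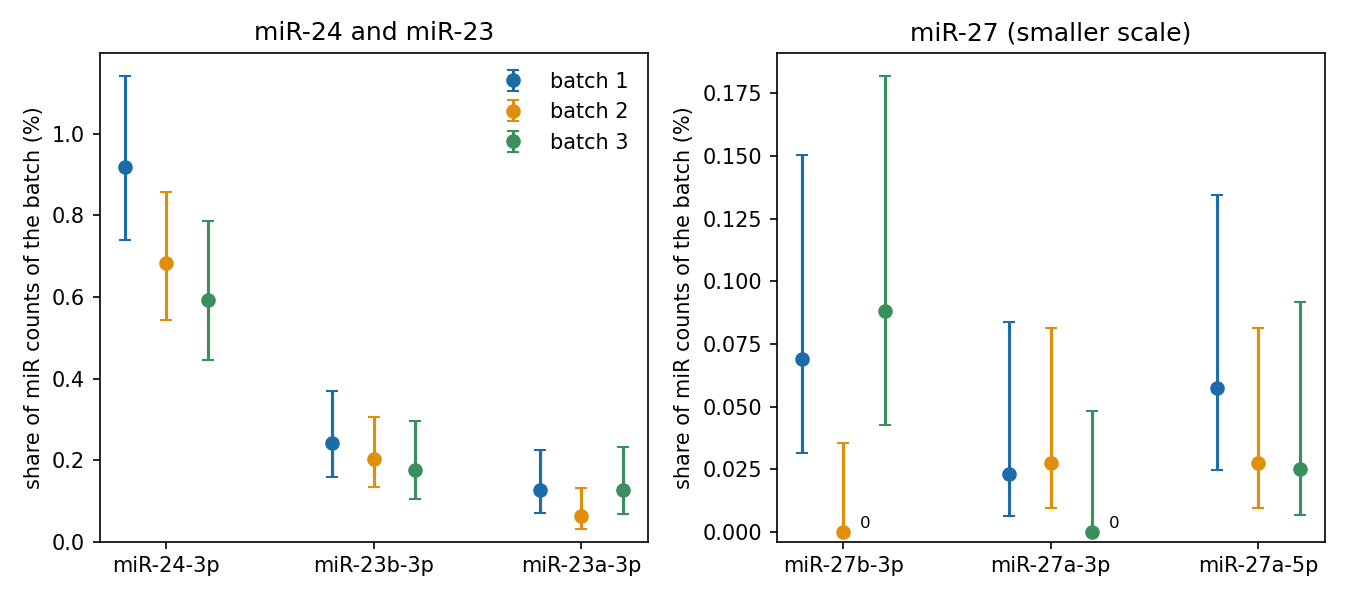
Shares of the 6 members with a count, in percent of the miR counts of each batch, for batches 1 to 3, with points for the shares and bars for the 95% Wilson interval. The right panel has a smaller scale. miR-24-3p lies between 0.592% and 0.919%, above every value of miR-23b-3p and miR-23a-3p, and 1 batch is at 0 for miR-27b-3p and for miR-27a-3p.

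**Figure D2:**
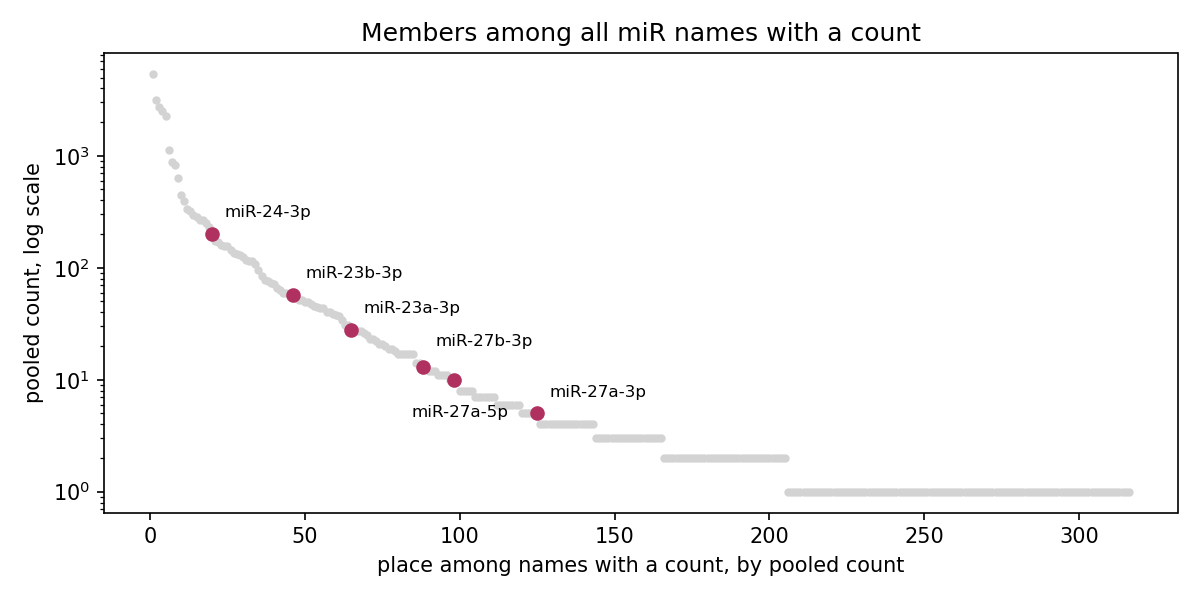
Pooled counts over the 3 batches (log scale) of the 316 names with a count, ordered from the highest to the lowest, with the members marked. The members run from 201 counts for miR-24-3p to 5 for miR-27a-3p.

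To ask whether the members differed between batches, the share of every miR with at least 30 counts in sum was compared between the libraries in an exact multinomial test adjusted over all 64 miRs tested. At an adjusted p under 0.05, 39.1% of the tested miRs (25 of 64) differed. Only 2 members had enough counts to be tested, and 0 of these 2 passed the adjusted threshold, while 1 of 2 had an unadjusted p under 0.05, as had 28 of the 64 miRs tested. miR-24-3p was 1.55-fold higher in batch 1 than in batch 3, and the exact test over all 3 batches gave p = 0.0404 (adjusted p = 0.0957). miR-23b-3p was 1.37-fold higher in batch 1 than in batch 3, and the exact test over all 3 batches gave p = 0.665 (adjusted p = 0.726). Batch 1 had the highest share for both, as it had for 43 of the 64 miRs tested, but with TMM-scaled totals batch 2 was the highest for both members, with 0.197%, 0.227% and 0.194% for miR-23b-3p.

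The result for miR-24-3p depended on the scaling and on which batches were compared. With TMM-scaled totals its shares became 0.750%, 0.763% and 0.650% in batches 1, 2 and 3 (exact test, adjusted p = 0.775). TMM scaling by itself moved all shares of batch 1 down by 0.29 and those of batches 2 and 3 up by 0.16 and 0.13 on the log2 scale. Relative to the totals without the 5 most abundant miRs the shares of miR-24-3p were 1.76%, 1.85% and 1.64% (exact test, adjusted p = 0.893). Without batch 2, the difference between batches 1 and 3 passed the threshold (exact test, adjusted p = 0.0493), and it also passed over all 3 batches with DESeq2 poscounts size factors, which hardly scaled for depth (exact test, adjusted p = 0.0282). Over the batches, miR-24-3p had a coefficient of variation of 23.1%, the same as the median of the 64 miRs (23.1%), and miR-23b-3p had 15.7%. Counting alone would give about 12.2% and 22.9% at the mean counts of these members.

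miR-27b-3p had too few counts for that test, but with a minimum of 10 counts in sum, 30.3% of the miRs tested (30 of 99) differed between batches. At this minimum 5 members were tested and 1 of these, miR-27b-3p, was called (exact multinomial test, adjusted p = 0.0157), whereas miR-23a-3p was not (exact test, adjusted p = 0.453). At the share of batches 1 and 3, 8.47 counts would have been found in batch 2, where 0 were observed. The call rested on batch 2, since the 6 and 7 counts of batches 1 and 3 gave an adjusted p = 0.923 in the exact test. It was also lost when all names with a count were tested (exact test, adjusted p = 0.0501). In batch 2, where miR-27b-3p was at 0, all 3 of the miR-27 3p counts stood under miR-27a-3p. In batch 3, all 7 stood under miR-27b-3p. The counts of the 2 names together were 8, 3 and 7. Only if each read was counted under 1 name are these sums free of how reads were divided. A part of read assignment at base 19 in these counts was not tested.

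The paralogs of the 2 loci were compared within each batch. miR-23b-3p, from chromosome 9, exceeded miR-23a-3p, from chromosome 19, in 3 of 3 batches. It made up 65.6% (exact binomial 95% interval 46.8% to 81.4%), 75.9% (56.5% to 89.7%) and 58.3% (36.6% to 77.9%) of the miR-23 3p counts in batches 1, 2 and 3. Only the interval of batch 2 lay above an equal division. In the pooled counts miR-23b-3p made up 67.1% (56.0% to 76.9%), or 2.04-fold the count of miR-23a-3p. The difference was 0.101 percentage points of the batch total (SD 0.0456, n = 3). The exact two-sided sign-flip permutation test over batches gave p = 0.25 for this pair, the smallest value that 3 batches allow, so none of the 8 pairs compared in this way could reach 0.05.

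For miR-27, the b paralog made up 75.0% of 8, 0% of 3 and 100% of 7 3p counts in batches 1, 2 and 3. These values spanned the whole range, and their exact intervals reached from 34.9% to 96.8%, from 0% to 70.8% and from 59.0% to 100%. The pooled part of miR-27b-3p was 72.2% (46.5% to 90.3%), an interval that included an equal division. As a ratio to miR-27a-3p this was 2.60-fold, but 6.50-fold without batch 2 and 1.20-fold without batch 3. Taking all arms that can be ascribed to 1 locus together, chromosome 9 had 70 counts and chromosome 19 had 43. The chromosome 9 part was 60.0%, 62.9% and 63.6% in batches 1, 2 and 3, and 61.9% in the pooled counts (52.3% to 70.9%). It was thus above 50% in each batch, with every interval of a single batch reaching below 50%.

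**Figure D3:**
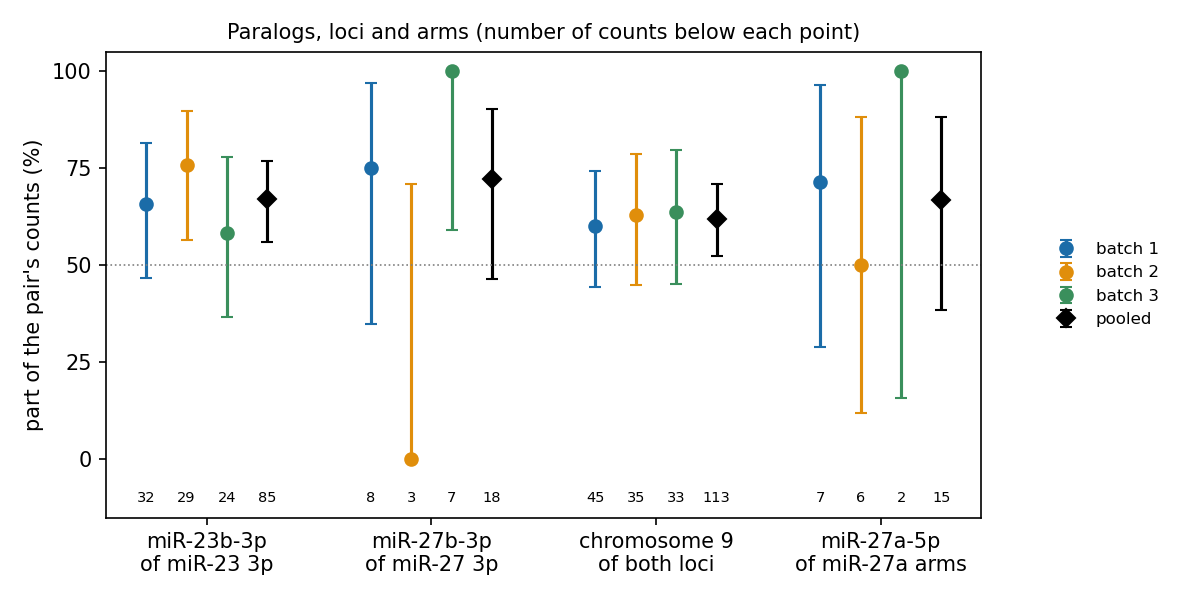
Part of miR-23b-3p in the miR-23 3p counts, of miR-27b-3p in the miR-27 3p counts, of chromosome 9 in the counts of both loci and of miR-27a-5p in the miR-27a counts, in percent, by batch (circles) and pooled (diamonds). Bars are exact binomial 95% intervals, the numbers under the points are the counts, and the dotted line marks 50%. The counts of both loci leave out miR-24-3p, which cannot be divided between them. The chromosome 9 part stays between 60.0% and 63.6%, whereas the miR-27b-3p part runs from 0% to 100%.

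Members of 1 transcript did not have like counts. Both loci give 1 miR-24 hairpin for each miR-23 hairpin, so that miR-24-3p can be set against the sum of miR-23a-3p and miR-23b-3p. The miR-24-3p count was 2.50-fold, 2.55-fold and 1.96-fold that sum in batches 1, 2 and 3, and 2.36-fold in the pooled counts (exact interval 1.83 to 3.08). On the log2 scale, the ratio was 1.20 ± 0.21 (SD, n = 3, with 0.5 added to both counts). The excess of miR-24-3p was present in 3 of 3 batches, and each exact interval lay above an equal count (sign-flip test, exact p = 0.25). The efficiency of adapter ligation varies with RNA sequence, and such ratios between different miRs are ratios of counts, not of molecules. The sources used here also do not say how reads that fit both miR-24 loci or both miR-23 paralogs were counted. The effect of such counting on the ratio was not tested.

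The miR-23 3p counts in turn exceeded those of miR-27 3p 4-fold, 9.67-fold and 3.43-fold in batches 1, 2 and 3, and 4.72-fold in the pooled counts (exact interval 2.82 to 8.35). On the log2 scale this ratio was 2.24 ± 0.73 (SD, n = 3). The order of the 3 families was therefore miR-24, miR-23, miR-27 in each batch. Within a locus only miR-23 and miR-27 can be compared, since miR-24-3p cannot be divided. On chromosome 9, the pooled count of miR-23b-3p was 4.38-fold that of miR-27b-3p (2.37 to 8.73), but 2.69-fold without batch 2 and 7.17-fold without batch 3, and in batch 3 alone the interval of the ratio included an equal count (0.755 to 5.86). On chromosome 19, the pooled count of miR-23a-3p was 5.60-fold that of miR-27a-3p (2.13 to 18.6), but 10.5-fold without batch 2 and 3.60-fold without batch 3, and in batch 2 alone the interval included an equal count (0.533 to 14.0). miR-23b-3p exceeded miR-27b-3p, and miR-23a-3p exceeded miR-27a-3p, in 3 of 3 batches.

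Other transcripts with several miRs were set beside these by the highest arm of each precursor. In the pooled counts, miR-23b-3p was 4.38-fold above miR-27b-3p, and miR-23a-3p was 2.80-fold above miR-27a-5p, the higher arm of miR-27a (1.32 to 6.46). The fold between the highest and the lowest precursor was 2-fold for miR-221 and miR-222 (1.34 to 3.04) and 3.31-fold for miR-25, miR-93 and miR-106b (2.41 to 4.63). Their intervals overlapped with those of the miR-23 and miR-27 pairs. It was 84.3-fold for miR-183-5p over miR-96-5p, which had 4 counts in all (32.6 to 311), and 135-fold for miR-191-5p over miR-425-5p (98.8 to 189). The latter was 58.0-fold, 265-fold and 192-fold in batches 1, 2 and 3, and 228-fold in the pooled counts without batch 1. The intervals of these clusters lay above those of miR-23b with miR-27b and of miR-23a with miR-27a.

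The arms of the hairpins were compared next. The 3p arm held all counts of miR-23a (28), miR-23b (57) and miR-27b (13). miR-24-3p had 201 counts against 0 for miR-24-1-5p and 0 for miR-24-2-5p, so that no 5p arm told which miR-24 hairpin had been processed. miR-27a was the exception, with 10 counts for the 5p arm and 5 for the 3p arm. Its hairpin is shown with both arms in capitals, the 5p arm first.
MIR27A: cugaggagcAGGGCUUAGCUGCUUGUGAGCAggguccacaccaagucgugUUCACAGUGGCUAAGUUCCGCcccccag

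The 5p arm of miR-27a had 5 of 7, 3 of 6 and 2 of 2 counts in batches 1, 2 and 3, and 66.7% of the 15 pooled counts. The exact 95% interval ran from 38.4% to 88.2%, so an excess of the 5p arm over the 3p arm was not shown at this depth. The 5p arm was detected in every batch, and the 3p arm was at 0 in batch 3. Pooled, the 5p arm had 2-fold the count of the 3p arm, but 1.67-fold without batch 1, 3.50-fold without batch 2 and 1.60-fold without batch 3. Of the 58 precursors with at least 10 counts and both arms in the table, 26 had no count for the lesser arm and 8 had over 30% of their counts in it. miR-27a was 1 of these 8 and miR-23a, miR-23b and miR-27b were among the 26.

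**Figure D4:**
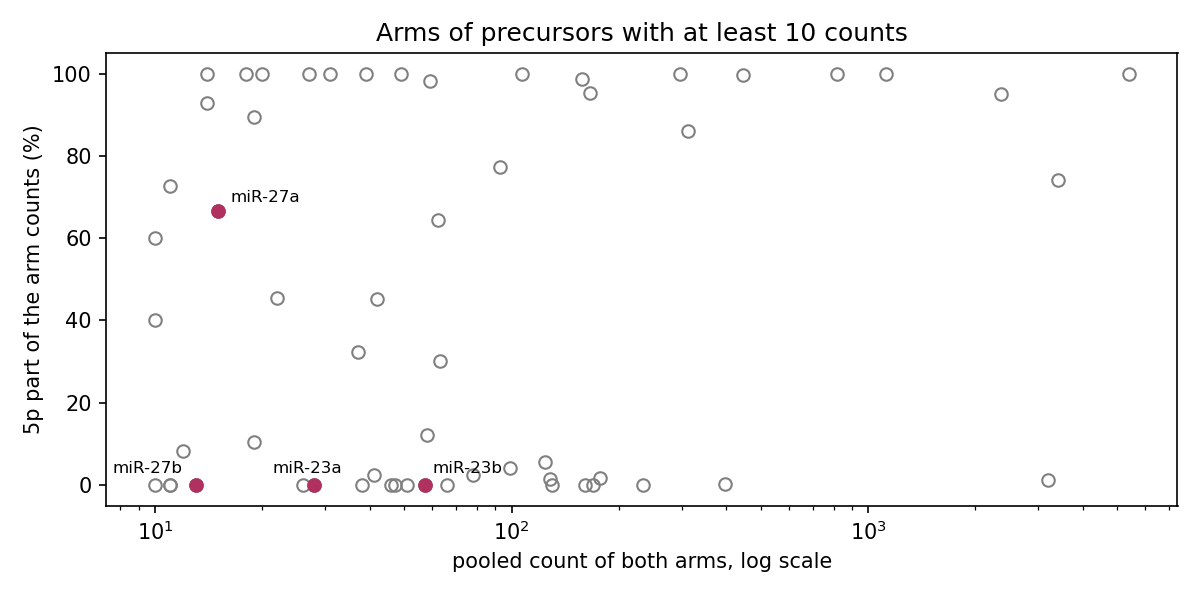
Part of the 5p arm in the counts of both arms, in percent, against the pooled count of both arms (log scale) for the 58 precursors with at least 10 counts, of which the 4 marked ones are members. miR-23a, miR-23b and miR-27b lie at 0% and miR-27a at 66.7%. miR-24 is left out because its 5p arms carry 2 names.

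MIR24-1 is overlapped on the opposite strand by MIR3074, and 20 of the 21 bases of miR-3074-5p are antisense to miR-24-3p. miR-3074-5p had 0 counts in every batch. For the cell type, the 3 listed liver miRs together made up 15.7% to 16.5% of the counts, most of them from miR-148a-3p, with 3169 of 4433 counts. miR-122-5p, 1 of the 3 listed liver miRs, had 2.48%, 0.905% and 1.64% in batches 1, 2 and 3 and differed between batches (exact multinomial test, adjusted p = 8.13e-16). The listed miRs of blood, endothelial, stromal and muscle cells had 17, 7 and 6 counts in batches 1, 2 and 3, or 0.195%, 0.0646% and 0.0756%. Of these miRs, the stromal miR-145-5p had 7, 3 and 3 counts, miR-143-3p had 2, 1 and 1, and the endothelial miR-126-3p had 7, 2 and 2. The endothelial miR-126-5p, the stromal miR-199a-5p and miR-214-3p and the muscle miRs miR-1-3p and miR-206 were at 0. So were the blood miRs miR-451a, miR-142-3p and miR-142-5p. Only 4 of the 5 listed blood miRs and 4 of the 5 listed stromal miRs were among the 512 names. The sum of the blood, endothelial, stromal and muscle lists was highest in batch 1, as were miR-122-5p and miR-24-3p. Batch 1 was the highest for 43 of the 64 miRs tested. The blood list, with 1 count in all, was highest in batch 2. By contrast, the liver list was lowest in batch 1, with 15.7%, 16.5% and 16.1% in batches 1, 2 and 3. Of its other members, miR-148a-3p had 10.5%, 12.6% and 11.2%, and miR-192-5p had 2.69%, 3.02% and 3.26%. All EVs came from 1 cell line, and a part of other sources in the level of miR-24-3p was not tested.

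The miRs whose levels moved over the 3 batches most like miR-24-3p, by the distance between log2 shares centred on their mean, were miR-25-3p (0.09), miR-17-5p (0.10), miR-186-5p (0.11) and miR-224-5p (0.12), out of 63 compared. miR-25-3p had 0.758%, 0.600% and 0.479% in batches 1, 2 and 3. miR-23b-3p, the only other member with enough counts, stood at place 8 of the 63 (0.15). With 3 batches, this is a description of the libraries.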

How the data were processed

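Small RNA from 3 batches of HepG2 EVs was profiled. Libraries were made with a NEBNext kit, run on an Illumina MiniSeq and checked with miRTrace; the authors deposited raw counts per miR and batch, not normalized. Build GRCh38 is named in the submitters' processing notes. Which aligner and counter were used is not given in the sources used here. A second deposited sheet repeats part of these counts and was not used.

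Shares of the batch total (7933 to 10834 counts) were computed with Wilson intervals and parts of 2 counts with exact binomial intervals. Shares were compared between batches by an exact multinomial test of the libraries against counting noise, for miRs with at least 30 counts. The p-values were adjusted by Benjamini-Hochberg at a threshold of 0.05. The test was tried on data simulated with counting noise only, which cannot show how it behaves with further spread between libraries. One condition leaves no contrast for a model of groups. Named miRs were all members, miRs sharing a seed or lying within 5 kb of a member, neighbors by rank, the 4 most like miR-24-3p and 4 other clusters. The members and lists were chosen with earlier results of these data known. Alternatives covered scaling (TMM in edgeR 4.0.16, size factors in DESeq2 1.42.0), minimum counts, the 0.5 added, pooling and each batch left out. RefSeq sequences were matched by name for 451 of 512 names, among them all 11 members. Python 3.11.15 with scipy 1.17.1 and R 4.3.3 were used.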

Additional observations from a re-analysis of the deposited data

How the results depend on the processing

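No paired analysis was possible because all samples form 1 group. The number of miRs that differed between batches was 25 of 64 tested. It was 33 of 64 with DESeq2 size factors of the poscounts type and 22 of 64 with TMM (15 of them among the 25). With totals without the 5 most abundant miRs, 15 of 59 differed (9 of them among the 25). Minimum counts of 50, 10 and 1 gave 20 of 49, 30 of 99 and 18 of 316. Without batch 1 only 4 of 50 (8%) differed, against 18 of 54 without batch 2 and 17 of 59 without batch 3. For miR-24-3p, the adjusted p of the exact multinomial test was 0.0957. It was 0.0282, past the threshold, with the poscounts factors, which were 1.00, 1.00 and 0.977 and so hardly scaled for depth. With 1 batch left out it ran from 0.0493 (without batch 2) to 0.898 (without batch 1). DESeq2 median-ratio factors, chosen after seeing the data, gave 0.810. miR-23b-3p passed in none of 10 alternatives (adjusted p from 0.492 to 0.961, exact test). The tests of miR-27b-3p with a minimum of 10 counts were also chosen after seeing the data, and it fell under that minimum without batch 1 or without batch 3. Totals without the 5 most abundant miRs raised, by their construction, the shares of the members (2.75%), of miR-24-3p (1.75%), of miR-23b-3p (0.50%) and of miR-23a-3p (0.255%). In the other alternatives the shares, parts and log2 ratios moved by less than 1 SD, as any mean of 3 values does when 1 is left out. Pooled count ratios with 1 batch left out were added after seeing the data. Those with miR-27a-3p or miR-27b-3p alone and of miR-191-5p to miR-425-5p moved by over 1.5-fold, and those of miR-24-3p to miR-23, of miR-23b-3p to miR-23a-3p and of chromosome 9 to 19 by less than that. Counts under 30, as for miR-23a-3p and all miR-27 arms, limited what could be compared.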

Other observations

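miR-128-3p carries at its bases 2 to 8 the heptamer CACAGUG that miR-27a-3p and miR-27b-3p carry at their bases 3 to 9. It is no member of the clusters and was chosen after its values were seen. It had 29, 8 and 8 counts in batches 1, 2 and 3, or 0.333%, 0.0738% and 0.101% of the miR counts, against 8, 3 and 7 counts for miR-27a-3p and miR-27b-3p together. Its share differed between batches (exact multinomial test, adjusted p = 0.000214) and was highest in batch 1.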
